A study of Homo sapiens with 4 samples.

Results

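The gene set described here comprises 36 genes of colonocyte differentiation and of the brush border: keratins, cell adhesion proteins, members of the CEACAM family, structural proteins and enzymes of the microvilli, secreted or transported products of mature colonocytes, and the transcription factors and RNA-binding protein that drive or mark intestinal identity. Members were chosen by symbol and matched through their Ensembl identifiers, so all 36 were found among the 60658 identifiers of the deposited tables. Of the 14803 genes with a mean FPKM of at least 1 over the 4 libraries, 26 were members. FPKM, the fragments of a gene per kilobase and per unit of library depth, is corrected for gene length and library depth, so levels can be compared between genes.

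The series asked what TMEM161A, a gene for a transmembrane protein, does in colorectal cancer. Its sequencing part has 1 library from each of 4 groups: HT29 with a negative control siRNA, HT29 with an siRNA against TMEM161A, LIM1215 with the negative control siRNA and LIM1215 with the siRNA against TMEM161A. Small interfering RNAs of this kind pair with an mRNA and lead to its cleavage. Lines of these names are established and derive from human colorectal carcinoma, but the identity of the cells sequenced was not tested. There is no untransfected group, and a single siRNA against the target, titled si2, was used in both. Time after transfection and the number of cultures are not given in the sources used here. No group has a replicate library, so a ratio between 2 libraries carries no error between cultures.

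Colonocytes arise at the crypt base, stop dividing as they move up and build an apical brush border of actin-filled microvilli. The homeobox factors CDX1 and CDX2, together with HNF4A and GATA factors, are known to switch on the genes of intestinal epithelium. Villin, espin and unconventional myosins bundle or anchor the actin core of the microvilli, ezrin ties it to the membrane, and protocadherins with the scaffold harmonin link the tips of neighbouring microvilli. In colorectal cancer, CDX2, KRT20 and CDH17 are used as markers of colonic origin.

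The targeted gene was lower in both libraries that were given its siRNA. TMEM161A (ENSG00000064545) went from 42.6 to 4.64 FPKM in the pair labelled HT29 and from 39.1 to 7.61 FPKM in LIM1215. Epithelial genes such as CDH1, which encodes E-cadherin, were present in all 4 libraries. CDH1 was at 48.0 and 41.6 FPKM in the libraries labelled HT29 and at 176 and 182 FPKM in LIM1215, control library first. Markers of other cell types were low, since PTPRC and CD3E of leukocytes and LUM and PDGFRA of fibroblasts were listed at 0 in all 4 libraries. All 5 endothelial markers and 7 of 8 fibroblast markers were under 1 FPKM in each library, and so were 6 or 7 of 8 leukocyte markers. The sums of the 8 leukocyte markers were 8.09 and 10.6 FPKM in the libraries labelled HT29 and 58.8 and 72.4 FPKM in LIM1215. Nearly all of each sum came from CD68 (6.22 to 72.2 FPKM). Those of the 8 fibroblast markers were 18.2 and 16.3 against 6.03 and 9.27 FPKM, mostly from COL1A1 (4.83 to 17.6 FPKM). The part of such cells in the results was not tested. The estimated depth was 18.13 to 21.54 fragments per kilobase at an FPKM of 1.

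Of the 9 colon epithelium markers examined, 4, KRT20, VIL1, LGALS4 and CDH17, were under 1 FPKM in both libraries labelled HT29. KRT8, KRT18, EPCAM and CDH1 were above 40 FPKM in both of them, and CDX2 was at 8.29 and 8.04 FPKM. HT29 is known as a colonic line that can form enterocyte-like and mucus-secreting cells. The identity of the cells in these 2 libraries was not tested, and every difference between the lines below is a difference from the libraries labelled HT29. In LIM1215, all 9 markers were at 67.8 FPKM or more in both libraries.

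Promoter sequences are shown for 5 members that differed between the lines and for 1 member listed at 0 in every library, because the factors that read such promoters, CDX1, CDX2, HNF4A and GATA6, are themselves members. RefSeq (GRCh38.p14) gave a window for 24 of the 36 members. Each sequence covers the 250 bases before the start of the gene, 5′ to 3′ on the gene's strand, and overlaps no annotated exon. They lie at chr2:88128063-88128312 (FABP1, minus strand), chr17:40885243-40885492 (KRT20, minus strand), chr12:57051199-57051448 (MYO1A, minus strand), chr19:38812946-38813195 (LGALS4, minus strand), chr13:27969316-27969565 (CDX2, minus strand) and chr11:60492528-60492777 (MS4A12, plus strand). Capitals mark exact matches on either strand to motifs of CDX and GATA factors and to the TATA box.
FABP1: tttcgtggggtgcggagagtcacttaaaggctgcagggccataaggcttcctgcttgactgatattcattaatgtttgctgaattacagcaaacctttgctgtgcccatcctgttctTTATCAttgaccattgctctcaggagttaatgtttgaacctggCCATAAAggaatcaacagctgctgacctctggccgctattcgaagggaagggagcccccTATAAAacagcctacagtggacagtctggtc
KRT20: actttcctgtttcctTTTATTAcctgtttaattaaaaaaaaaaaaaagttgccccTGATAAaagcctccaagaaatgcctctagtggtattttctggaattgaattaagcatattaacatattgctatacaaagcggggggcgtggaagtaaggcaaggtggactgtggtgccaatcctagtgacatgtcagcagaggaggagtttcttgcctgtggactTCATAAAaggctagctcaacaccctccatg
MYO1A: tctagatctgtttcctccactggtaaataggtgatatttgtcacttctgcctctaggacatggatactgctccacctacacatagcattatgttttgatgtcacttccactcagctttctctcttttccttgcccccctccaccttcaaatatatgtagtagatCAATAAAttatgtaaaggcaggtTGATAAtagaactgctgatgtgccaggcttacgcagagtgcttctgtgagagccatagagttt
LGALS4: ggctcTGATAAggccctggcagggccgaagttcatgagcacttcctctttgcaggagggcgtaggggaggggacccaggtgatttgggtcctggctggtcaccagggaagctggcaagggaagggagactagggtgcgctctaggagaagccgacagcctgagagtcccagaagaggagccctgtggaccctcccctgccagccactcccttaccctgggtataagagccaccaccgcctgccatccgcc
CDX2: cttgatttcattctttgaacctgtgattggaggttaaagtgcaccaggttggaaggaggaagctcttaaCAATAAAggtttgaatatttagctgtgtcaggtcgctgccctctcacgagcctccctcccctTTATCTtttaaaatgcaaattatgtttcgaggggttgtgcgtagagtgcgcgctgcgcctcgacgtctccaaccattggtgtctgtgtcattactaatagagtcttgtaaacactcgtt
MS4A12: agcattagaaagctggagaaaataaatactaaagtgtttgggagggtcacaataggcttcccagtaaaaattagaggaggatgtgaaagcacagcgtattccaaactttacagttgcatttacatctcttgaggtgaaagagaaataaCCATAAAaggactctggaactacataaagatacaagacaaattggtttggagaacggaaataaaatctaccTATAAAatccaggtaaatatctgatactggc
These letters are a description and do not show binding. The CDX motif, searched as CAATAAA or CCATAAA or TAATAAA or TCATAAA, was in the windows of 6 of the 24 members, against 11.7% of all 35116 windows in the RefSeq table. The GATA motif, AGATAA or TGATAA, was in 8 of the 24, against 14.6%. The HNF4 motif, CAAAGTC, was in 3, against 2.91%, and the TATA box, TATAAA, in 5, against 10.7%. Both strands were read, and matches of different motifs were allowed to share bases. A member with several windows counted once if any held the motif, while the shares over the table are of single windows. MS4A12, listed at 0 throughout, held a CDX motif 102 to 96 bases and a TATA box 31 to 26 bases before its start, as FABP1 did at 90 to 84 and 31 to 26 bases.

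The lines differed at most members. On the scale of log2(FPKM + 1), 22 of the 36 members were at least 2-fold higher in the LIM1215 control than in the library labelled HT29 control, and 1, EZR, was at least 2-fold lower. Among all genes compared, 12% were that much higher and 7.42% that much lower. In the 2 knockdown libraries, which share no library with this comparison, 19 members were higher and 1, again EZR, lower, beside 12.7% and 8.53% of all genes. The median ratio of the 36 members was 1.63 on the log2 scale between the control libraries and 1.64 between the others, beside 0.05 and 0.03 over all genes compared. These medians rest in part on the pseudocount, because 10 members were listed at 0 in both libraries labelled HT29.

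A limma fit over all 4 libraries tested the line difference averaged over the siRNAs, with 2 libraries per line and 1 residual degree of freedom per gene, moderated over 14803 genes. Of the 26 members tested, 13 had a mean of at least 1 FPKM in each line. At a Benjamini-Hochberg adjusted p under 0.05, 7 of these 13 were higher in LIM1215 (KRT8, KRT18, CDX2, GATA6, USH1C, EPCAM and CEACAM1) and 2, EZR and CA2, were lower. Of the 13118 genes with such means, 20.9% were called higher and 16.3% lower. The other 13 members had a mean under 1 FPKM in the libraries labelled HT29 and passed the filter only through LIM1215, so they are given below by their levels, with no p. With them the fit called 20 higher and 2 lower, beside 23.3% and 16.4% of all genes, which is a description. The residual behind the p-values is the difference of siRNA response between the lines, moderated over genes. With 1 library per line and siRNA, the p-values do not measure variation between cultures. Fewer cells that express a gene and less RNA per cell cannot be told apart in such bulk libraries.

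**Figure D1:**
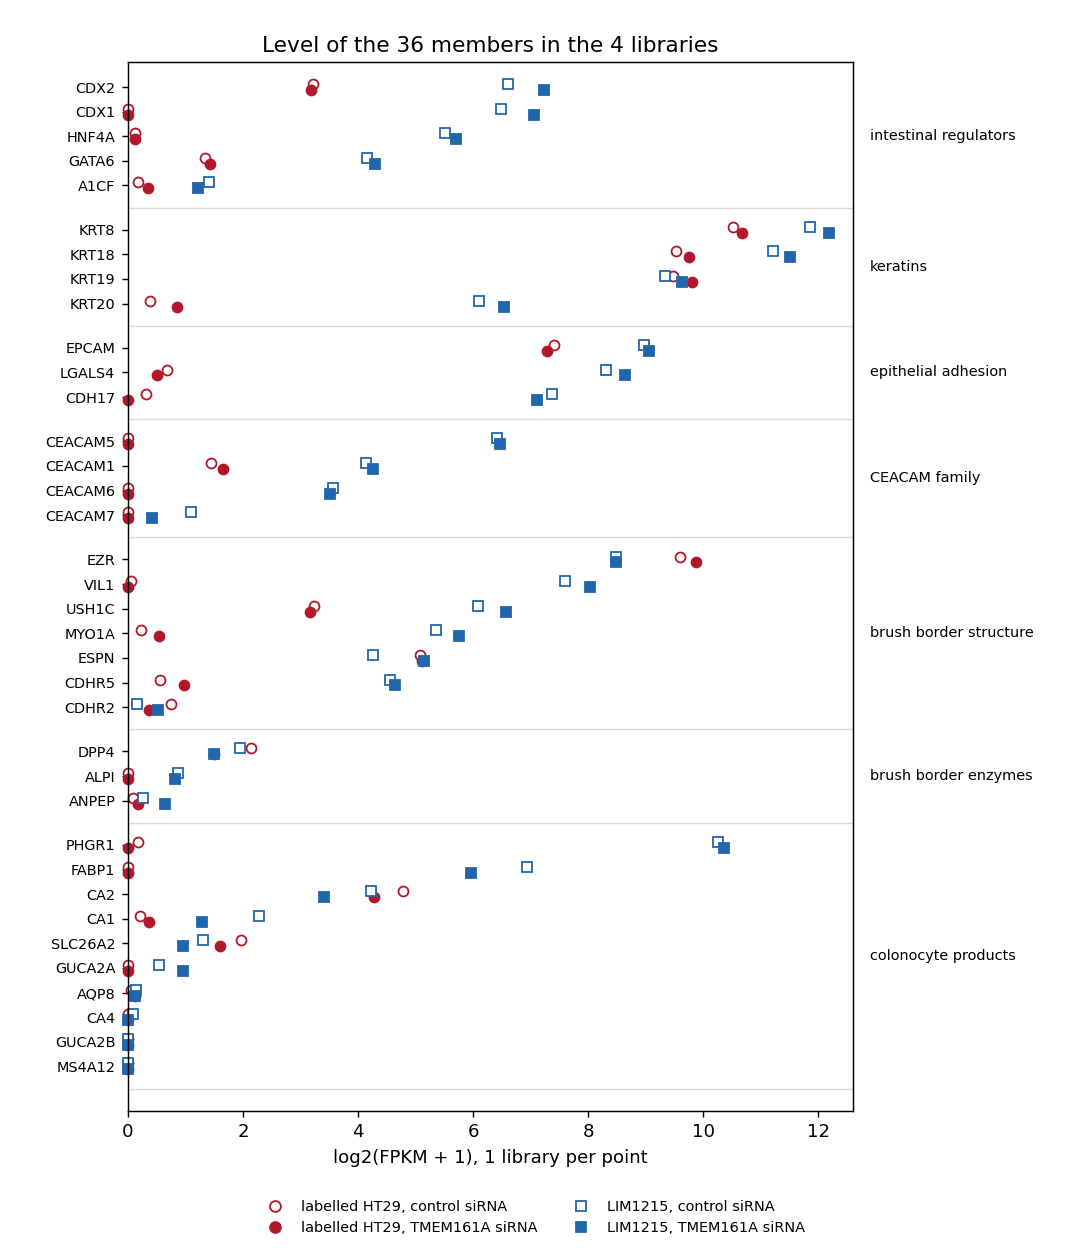
Level of each of the 36 members in the 4 libraries as log2(FPKM + 1), 1 point per library, grouped by role; circles are the libraries labelled HT29, squares LIM1215, and filled symbols received the TMEM161A siRNA. The LIM1215 squares lie to the right of the circles for most members, from 10.4 to 1311 FPKM against at most 0.955 FPKM for 12 of them. KRT19, ESPN, DPP4 and CDHR2 overlap, and EZR, CA2 and SLC26A2 are reversed.

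Of the 5 intestinal regulators, CDX2 and GATA6 were tested with a mean of at least 1 FPKM in each line, and both were higher in LIM1215. CDX1 (ENSG00000113722, chr5:150166778-150184558, plus strand) was listed at 0 in both libraries labelled HT29 and stood at 88.4 FPKM in the LIM1215 control and 132 FPKM in its knockdown. CDX2 (ENSG00000165556, chr13:27960918-27969315, minus strand), its homologue, was at 8.29 and 8.04 FPKM in the libraries labelled HT29 and at 96.8 and 150.1 FPKM in LIM1215. CDX2 was thus detected in every library, and its mean was 15.1-fold higher in LIM1215 (limma adjusted p = 1.31e-05).

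HNF4A (ENSG00000101076, chr20:44355699-44432845, plus strand), a nuclear receptor of enterocytes and hepatocytes, was at 0.0948 and 0.0886 FPKM in the libraries labelled HT29, an estimated 8.96 and 8.48 fragments. In LIM1215 it stood at 44.7 and 51.2 FPKM, 523-fold higher by the means. GATA6 (ENSG00000141448), a zinc finger factor of endoderm, was detected in all 4 libraries, at 1.52 and 1.67 FPKM against 16.9 and 18.5 FPKM. Its means differed 11.1-fold, with a limma adjusted p of 4.98e-05. A1CF, the RNA-binding partner of the enzyme that edits apolipoprotein B mRNA, was at 0.129 and 0.267 FPKM against 1.65 and 1.33 FPKM and had too low a mean to be tested.

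Of the keratins, the intermediate filaments of epithelia, KRT8 and KRT18 were called higher in LIM1215, KRT19 was not called, and KRT20 was under 1 FPKM in the libraries labelled HT29. KRT8 (ENSG00000170421, chr12:52897187-52949954, minus strand), the type II keratin of simple epithelium, was at 1467 and 1624 FPKM in the libraries labelled HT29 and at 3719 and 4657 FPKM in LIM1215, where it ranked 20th and 11th among all genes. KRT18, its type I partner, was at 736 and 861 FPKM against 2362 and 2906 FPKM. The means of KRT8 and KRT18 differed 2.71-fold and 3.30-fold, with limma adjusted p-values of 9.07e-05 and 3.06e-05.

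KRT19, a small type I keratin of ducts and gut, was abundant in every library, at 712 and 898 FPKM against 647 and 795 FPKM, and the lines overlapped (limma adjusted p = 0.242). It was called lower in LIM1215 with FPKM rescaled to a common sum or by the upper quartile, at −0.30 and −0.29 on the log2 scale. KRT20 (ENSG00000171431, chr17:40875889-40885242, minus strand), the keratin of differentiated gut epithelium, was at 0.306 and 0.815 FPKM in the libraries labelled HT29 and at 67.8 and 92.2 FPKM in LIM1215. Its mean was 143-fold higher in LIM1215. The values labelled HT29 rested on an estimated 10.4 and 28.1 fragments. The promoter of KRT20 is one of those printed above.

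Of the 3 adhesion members, EPCAM was expressed in both lines and LGALS4 and CDH17 in LIM1215. EPCAM, a surface protein of most epithelia, was at 168 and 154 FPKM against 503 and 533 FPKM, a 3.22-fold difference of means (limma adjusted p = 4.73e-05). LGALS4 (ENSG00000171747, chr19:38801671-38812945, minus strand), or galectin-4, a lectin that clusters apical glycoproteins, was at 0.607 and 0.417 FPKM in the libraries labelled HT29 and at 316 and 398 FPKM in LIM1215. Its means differed 698-fold. CDH17, the liver-intestine cadherin, was at 0.243 FPKM and 0 in the libraries labelled HT29 against 165 and 137 FPKM.

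The CEACAM members, surface glycoproteins of the immunoglobulin superfamily, were mostly absent from the libraries labelled HT29. CEACAM5 (ENSG00000105388, chr19:41708585-41730433, plus strand), the carcinoembryonic antigen measured in blood of patients with colorectal cancer, was listed at 0 in both and at 84.3 and 87.1 FPKM in LIM1215. CEACAM6 was listed at 0 in both and at 10.8 and 10.4 FPKM in LIM1215. CEACAM1, the family's inhibitory receptor, was detected in all 4 libraries, at 1.73 and 2.14 FPKM against 16.6 and 18.0 FPKM, an 8.93-fold difference of means (limma adjusted p = 6.36e-05). CEACAM7 was listed at 0 in both libraries labelled HT29 and at 1.13 and 0.333 FPKM in LIM1215, too low to be tested.

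CEACAM5 and CEACAM6 both overlap a readthrough gene on the same strand, ENSG00000267881, at 0 in the libraries labelled HT29 and 18.8 and 25.9 FPKM in LIM1215, so fragments of the 3 genes may be divided differently by another counting. The 3 neighbours CEACAM7, CEACAM5 and CEACAM6 lie within 1 cluster, with gaps of 1.61 and 20.5 kb. All 3 were listed at 0 in the libraries labelled HT29.

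Structural genes of the brush border went in both directions. VIL1 (ENSG00000127831, chr2:218419121-218453295, plus strand), or villin, which bundles and severs actin, was at 0.0397 FPKM and 0 in the libraries labelled HT29 and at 192 and 261 FPKM in LIM1215. MYO1A (ENSG00000166866, chr12:57028517-57051198, minus strand), the myosin that tethers the actin core to the membrane, was at 0.175 and 0.453 FPKM against 39.7 and 53.2 FPKM, a 148-fold difference of means. CDHR5, a protocadherin of the microvillus tips, was at 0.471 and 0.955 FPKM against 22.6 and 23.9 FPKM, 32.6-fold by the means. Its partner CDHR2 was under 1 FPKM in all 4 libraries, from 0.116 to 0.673 FPKM.

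USH1C, the scaffold harmonin that holds those protocadherins, was expressed in both lines, at 8.46 and 7.92 FPKM against 67.2 and 93.7 FPKM (9.83-fold, limma adjusted p = 2.18e-05). ESPN, or espin, another actin bundler, was at 32.8 and 33.5 FPKM in the libraries labelled HT29 and at 18.2 and 34.6 FPKM in LIM1215, so the lines overlapped (limma adjusted p = 0.178). EZR (ENSG00000092820, chr6:158765741-158819368, minus strand) was the most abundant of the group and the one member at least 2-fold lower in LIM1215. It was at 776 and 937 FPKM against 359 and 356 FPKM, a 2.40-fold difference of means (limma adjusted p = 2.00e-04).

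Enzymes of the brush border were low in both lines. DPP4, a peptidase that removes dipeptides after proline or alanine, was highest, at 3.39 and 1.82 FPKM against 2.88 and 1.82 FPKM, with no separation of the lines (limma adjusted p = 0.801). ALPI, intestinal alkaline phosphatase, was listed at 0 in both libraries labelled HT29 and at 0.821 and 0.755 FPKM in LIM1215. ANPEP, aminopeptidase N, did not pass 0.566 FPKM in any library. None of the 3 reached a 2-fold ratio between the lines on the FPKM + 1 scale, which values under 1 FPKM cannot reach. The means of ANPEP differed 3.98-fold, higher in LIM1215. With a pseudocount of 0.1, the log2 ratio of ALPI was 3.20 between the control and 3.10 between the knockdown libraries.

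Products of mature colonocytes ranged from the most different member to members listed at 0. PHGR1 (ENSG00000233041, chr15:40351033-40356434, plus strand), a short protein rich in proline, histidine and glycine made in gut epithelium, was at 0.127 FPKM and 0 in the libraries labelled HT29 and at 1225 and 1311 FPKM in LIM1215, where it ranked 106th and 102nd among all genes. FABP1 (ENSG00000163586, chr2:88122982-88128062, minus strand), the fatty acid binding protein of liver and gut, was listed at 0 in both libraries labelled HT29 and at 122 and 61.1 FPKM in LIM1215.

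The carbonic anhydrases, which convert carbon dioxide to bicarbonate, were divided. CA1 was at 0.157 and 0.285 FPKM against 3.88 and 1.44 FPKM. CA2 was higher in the libraries labelled HT29, at 26.4 and 18.4 FPKM against 17.8 and 9.65 FPKM, a 1.63-fold difference of means (limma adjusted p = 0.00984). CA2 was not called with all genes above 0 in the fit, nor with the line term alone. The gap between the lines was narrow, since 18.4 FPKM in the library labelled HT29 knockdown lay just above 17.8 FPKM in the LIM1215 control. CA4, the membrane-bound form, reached 0.0579 FPKM in the LIM1215 control and was listed at 0 in the other libraries.

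SLC26A2, a sulfate transporter, was at 2.90 and 2.04 FPKM in the libraries labelled HT29 against 1.46 and 0.9501 FPKM in LIM1215 (limma adjusted p = 0.0904). The hormone guanylin, GUCA2A, was listed at 0 in both libraries labelled HT29 and at 0.451 and 0.941 FPKM in LIM1215. Uroguanylin, GUCA2B, and MS4A12, a colonocyte membrane protein, were listed at 0 in all 4 libraries, and the water channel AQP8 did not pass 0.103 FPKM. Ribosomal protein genes, which every cell uses, were above 0 in all 4 libraries for 77 of 77. That does not show how zeros were spread over genes of lower level.

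**Figure D2:**
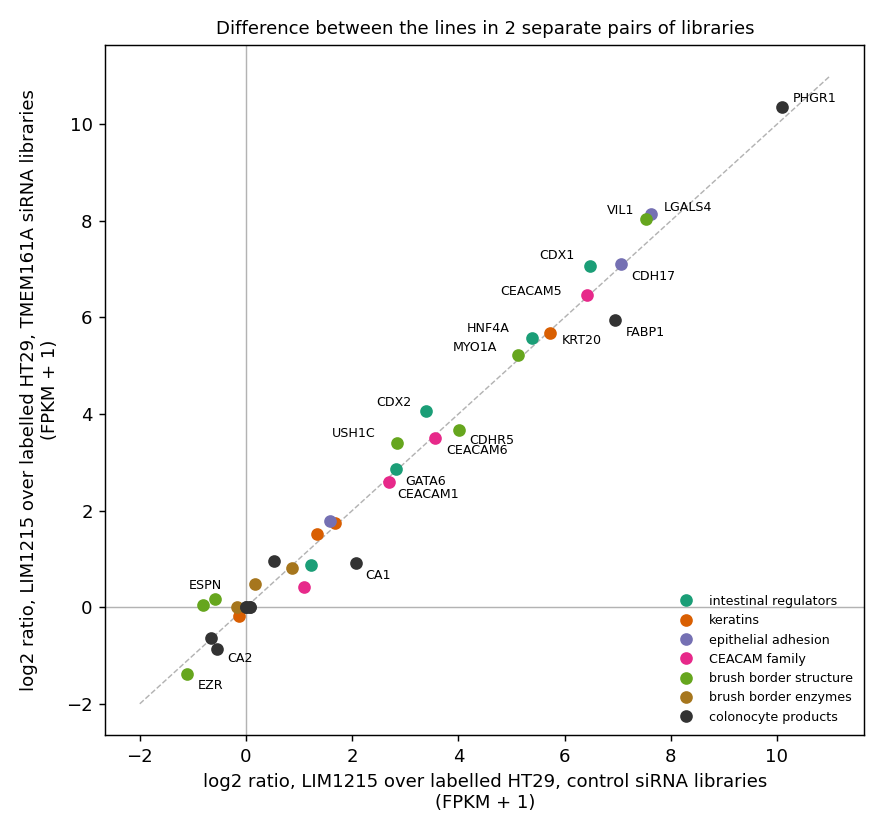
Ratio of LIM1215 over the libraries labelled HT29 for the 36 members, as log2 of FPKM + 1, in the control libraries (x axis) and in the TMEM161A siRNA libraries (y axis); points are genes coloured by role and the dashed line marks equal ratios. PHGR1 lies farthest out, at 10.1 and 10.4, EZR lowest, at −1.11 and −1.39, and CA1, at 2.08 and 0.93, is farther below the dashed line than its neighbours.

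By level, members fell into 3 blocks that hold 26 of the 36, with limits of 1 and 10 FPKM that were set after the values were seen. In the first, 12 members were under 1 FPKM in both libraries labelled HT29 and at least 10 FPKM in both LIM1215 libraries: KRT20, FABP1, CDX1, HNF4A, VIL1, MYO1A, CDHR5, CEACAM5, CEACAM6, PHGR1, LGALS4 and CDH17. Of all 14803 genes compared, 156 had this pattern, or 1.05%. The reverse pattern held for no member and for 2 genes in all, 0.0135%, of which LRRTM4 has a symbol and stood at 18.2 and 23.4 FPKM against 0 and 0.

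The other blocks were members high in all 4 libraries and members low in all 4, and each mixed several roles. At least 10 FPKM in all 4 libraries was reached by 6 members, KRT8, KRT18, KRT19, EZR, ESPN and EPCAM. Of the 14803 genes compared, 46.9% reached it, a share that leaves out genes with a mean under 1 FPKM. The 36 members were not filtered in this way. Under 1 FPKM in all 4 were 8 members, a pattern not counted over all genes: CA4, AQP8, CDHR2, ALPI, ANPEP, GUCA2A, GUCA2B and MS4A12. Several of these mark the mature surface or crypt top of normal colon. Of the 7 members of the first block with a promoter window, 3 held a CDX, 5 a GATA and 1 an HNF4 motif, and 3 a TATA box. Of the 7 members under 1 FPKM with a window, 2 held a CDX, 1 a GATA and 2 an HNF4 motif, and 1 a TATA box. Over all windows of the RefSeq table the shares were 11.7%, 14.6%, 2.91% and 10.7%, in the same order. Members with several windows had more chances to hold a motif.

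TMEM161A siRNA was compared with control siRNA within each line next. On the FPKM + 1 scale, no member reached a 2-fold ratio in either line or direction, where 1.85% of all genes were that much higher and 1.95% lower in the pair labelled HT29, and 1.68% higher and 1.78% lower in LIM1215. The median of the 36 members was 0 in the pair labelled HT29 and 0.09 in LIM1215, beside 0.04 and 0.02 over all genes. The count of 0 depends on the scale: a pseudocount of 0.1 gave 2 members higher and 2 lower in the pair labelled HT29 and 2 higher and 3 lower in LIM1215. In LIM1215, 1 member was lower with FPKM rescaled to a common sum and 2 with ratios centred on the median. Percentages of control, which use no pseudocount, passed 2-fold for low members such as CDHR2, at 378.4% (172.4% to 944.2%) in LIM1215 and 42.58% (25.5% to 69.3%) in the pair labelled HT29, from under 1 FPKM in each library.

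Averaged over both lines, limma called 0 of the 26 tested members in either direction, beside 0.858% of genes higher and 1.09% lower. At an unadjusted p under 0.05 there were 4, CA2, KRT19, KRT20 and KRT18, where 19.5% of all genes tested passed that limit. The lowest adjusted p of a member was 0.0829, of CA2.

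In LIM1215, 21 of the 36 members were above control, 13 below and 2 equal, and in the pair labelled HT29 14 were above, 12 below and 10 equal. Over the 14803 genes compared, 7861 were above and 6870 below control in LIM1215. For 27 members the mean of the 2 LIM1215 libraries was at least 1 FPKM, and of these 18 were above and 9 below control, with a median log2 ratio of 0.12 and a range from −0.999 to 0.888. Of all 14651 genes with such a mean, 7861 were above and 6790 below control, with a median of 0.03. The 95% counting interval (Clopper-Pearson, from estimated fragments) lay above 100% of control for 15 of the 27. It lay below for 7, FABP1, CA1, CA2, SLC26A2, A1CF, DPP4 and CDH17, and across for 5, EZR, CDHR5, CEACAM1, CEACAM5 and CEACAM6. Such intervals hold counting error alone, and with 1 library per group the differences have no replicate check. They were not computed over all genes, so these counts have no background share. With many fragments they exclude 100% at small differences, as for EPCAM, at 106.1% (103.6% to 108.7%).

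Among regulators in LIM1215, CDX2 with the TMEM161A siRNA was at 155% of control (counting interval 150.1% to 160.2%) and CDX1 at 149.8% (142.5% to 157.4%). HNF4A was at 114.7% and GATA6 at 109.7%, and the intervals of both lay above 100%. In the pair labelled HT29, CDX2 was at 97.1% of control (86.2% to 109.2%). The difference of response between the lines is the residual of the limma fit, so no degrees of freedom were left to test it.

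ESPN had the highest percentage of these 27 members. With the TMEM161A siRNA it was at 189.7% of control (176.5% to 204.0%), and among the other brush border genes USH1C was at 139.4%, VIL1 at 136.0% and MYO1A at 133.9%. EZR was at 99.2%, with an interval from 97.3% to 101.2%. ESPN overlaps TNFRSF25, a receptor gene on the opposite strand, which went from 12.7 to 22.4 FPKM in the same libraries and from 8.44 to 15.9 FPKM in the pair labelled HT29, where ESPN was at 102.1%. The libraries were made with a stranded kit, but whether the counting used strand is not given in the sources used here, so the share of each gene in those fragments was not tested.

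All 4 keratin members had higher values with the TMEM161A siRNA in both pairs, and none was called by limma. Of all genes with a mean of at least 1 FPKM in the line, 54.7% were above control in the pair labelled HT29 and 53.7% in LIM1215. The share above control in both pairs was not computed. Summed FPKM was 785861 with control and 830981 with TMEM161A siRNA in the pair labelled HT29, and 891114 and 894570 in LIM1215. The part of this shift in the keratin values was not tested. KRT8 was at 110.7% of control in the pair labelled HT29 and 125.2% in LIM1215, KRT18 at 117.1% and 123.0%, and KRT19 at 126.1% and 122.9%. KRT20 was at 136.0% in LIM1215 and at 266.4% in the pair labelled HT29, where the few fragments gave an interval from 125.6% to 614.8%. The limma siRNA term averaged over both lines was 0.24, 0.26, 0.32 and 0.46 on the log2 scale for KRT8, KRT18, KRT19 and KRT20. The limma adjusted p-values were 0.281, 0.214, 0.152 and 0.185. Among 4 further keratins of simple epithelium, KRT7 and KRT23 also had higher values in both pairs, while KRT80 was at 65.8% of control (62.2% to 69.7%) in LIM1215, and KRT222 at 43.96% (29.4% to 64.8%) in the pair labelled HT29.

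Absorptive products and the peptidase DPP4 were at the low end. FABP1 in LIM1215 stood at 49.96% of control (43.9% to 56.8%), just short of a 2-fold ratio on the scale with a pseudocount, and it was listed at 0 in the pair labelled HT29. CA1 in LIM1215 stood at 37.15% (25.95% to 52.49%), from an estimated 114 and 47.5 fragments, with a log2 ratio of −0.999 that also fell just short. CA2 was at 69.5% (62.2% to 77.7%) in the pair labelled HT29 and at 54.3% (46.5% to 63.4%) in LIM1215, with a limma term of −0.66 and a standard error of 0.15. With genes restricted to a mean of at least 5 FPKM, CA2 passed the adjusted threshold.

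DPP4 was at 53.6% of control (43.1% to 66.6%) and 63.2% (49.8% to 80.0%) in the pair labelled HT29 and in LIM1215, and SLC26A2 at 70.3% (61.1% to 80.9%) and 65.0% (52.4% to 80.6%). Neither was called by limma, with adjusted p-values of 0.274 for DPP4 and 0.520 for SLC26A2. CDH17 in LIM1215 was at 82.9% (80.6% to 85.2%). CEACAM7 in LIM1215 was at 29.5% (15.3% to 53.9%), from an estimated 44.6 and 14.7 fragments. PHGR1 and EPCAM differed little from control in LIM1215, at 107.0% and 106.1%.

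In the pair labelled HT29, 13 members had a mean of at least 1 FPKM, of which 7 were above and 6 below control, beside 7841 and 6481 of the 14322 genes with such a mean. These limits on the mean were set after the values were seen. The counting interval lay above 100% of control for KRT8, KRT18, KRT19 and EZR, below it for CA2, SLC26A2, DPP4 and EPCAM. It lay across 100% for CDX2, GATA6, ESPN, USH1C and CEACAM1, and again no share over all genes was computed. Log2 ratios of these 13 ranged from −0.64 to 0.33. EZR was at 120.7% and EPCAM at 91.8%. Among members under 1 FPKM, MYO1A was at 259.3% (132.9% to 536.9%) and CDHR5 at 202.8% (130.9% to 320.1%), values that rest on an estimated 12.8 to 65.0 fragments per library.

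**Figure D3:**
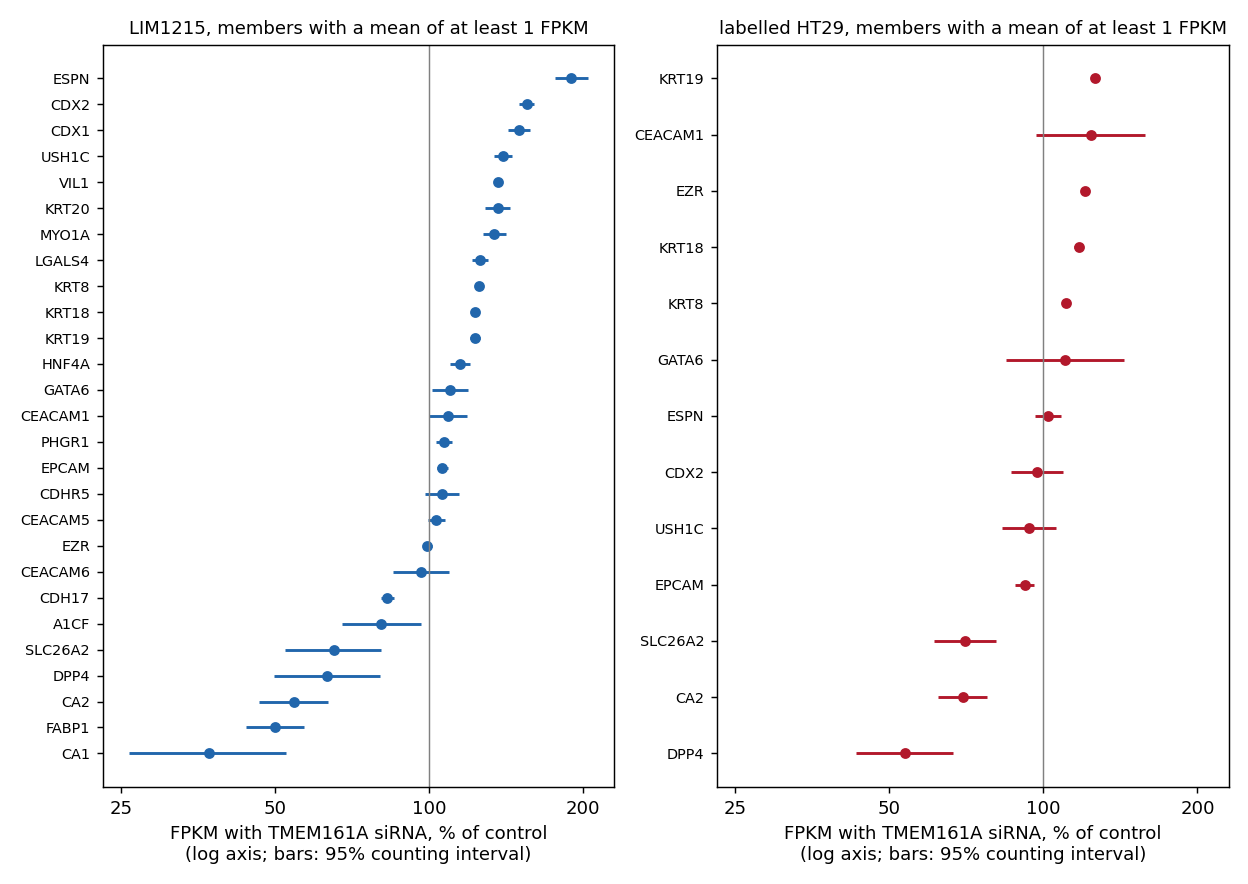
FPKM with the TMEM161A siRNA as a percentage of control siRNA on a log axis, for the 27 members with a mean of at least 1 FPKM in LIM1215 (left) and the 13 with such a mean in the libraries labelled HT29 (right); bars are 95% counting intervals and leave out variation from culture to culture. ESPN is highest in LIM1215 at 189.7% and CA1 lowest at 37.15%, and in the libraries labelled HT29 DPP4 is lowest at 53.6%.

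Other genes of the same roles were examined as lists, counted where the mean was at least 1 FPKM in each line, beside the same 20.9% higher and 16.3% lower over all genes. Of 25 further genes of brush border structure, 17 had such means, and limma called 10 higher and 1 lower in LIM1215. Another 6 passed the filter only through LIM1215, among them the next 3 named. EPS8L3, a relative of an actin-capping protein, was listed at 0 in both libraries labelled HT29 and at 179.8 and 193.8 FPKM in LIM1215. MYO7B, the motor of the tip complex, went from 0 and 0.148 to 22.3 and 34.7 FPKM, and CLRN3 from 0 and 0 to 18.4 and 17.1 FPKM. The median log2 ratio of the 25 was 0.88 between the control and 0.80 between the knockdown libraries, beside 0.05 and 0.03 over all genes. With the TMEM161A siRNA, 1 of the 25, MXRA8, was at least 2-fold higher, from 1.18 to 3.57 FPKM in the pair labelled HT29, beside 1.85% of all genes.

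Of 24 further enzymes and transporters of the brush border, 6 had a mean of at least 1 FPKM in each line, with 3 called higher and 1 lower in LIM1215, and 5 passed only through LIM1215. The medians over the list were 0.13 and 0.14. TMPRSS2, a membrane serine protease, was listed at 0 in both libraries labelled HT29 and at 55.3 and 57.3 FPKM in LIM1215, and MME, neprilysin, was listed at 0 in both against 14.1 and 13.9 FPKM. SLC5A1, the sodium glucose transporter, was the one called lower, at 5.74 and 2.14 against 1.80 and 0.937 FPKM. ALPP, an alkaline phosphatase best known from placenta, was at 4.71 FPKM in the LIM1215 control and 14.7 FPKM in its knockdown, the one gene of this list at least 2-fold higher with the TMEM161A siRNA. The one gene at least 2-fold lower was SLC5A1 in the pair labelled HT29, at 37.3% of control. There, 1.95% of all genes were that much lower, and in LIM1215 1.68% were that much higher.

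Of 30 further colonocyte products, 6 had such means, with 4 called higher and 2, MALL and FABP6, lower in LIM1215, and 9 passed only through LIM1215. The medians over the list were 0.27 and 0.25. GPA33, a surface antigen of gut epithelium, was at 0.0200 and 0.0395 FPKM against 93.3 and 106.0 FPKM, PLAC8 at 0.982 and 0.966 against 155.5 and 71.4 FPKM, and the alcohol dehydrogenase ADH1C was listed at 0 in both against 14.4 and 19.8 FPKM. PLAC8 and the retinol binding protein RBP2 were the 2 genes of the list at least 2-fold lower with the TMEM161A siRNA in LIM1215, RBP2 going from 5.94 to 2.32 FPKM. MALL was the 1 gene at least 2-fold higher with that siRNA, from 14.8 to 31.3 FPKM in the pair labelled HT29. Of 25 further regulators, 15 had such means, with 10 called higher and 2, KLF4 and EHF, lower, and medians over the list of 0.85 and 0.84. FOXA1, a forkhead factor of endoderm, was at 2.097 and 1.573 against 24.2 and 30.15 FPKM, and KLF5, a factor of dividing crypt cells, at 29.7 and 42.5 against 149 and 135 FPKM.

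The remaining families did not move as a block. Of 8 further CEACAM genes 1 was tested and 0 were called for line by limma (0 at an unadjusted p under 0.05). Of 4 further keratins of simple epithelium, 3 were tested, KRT7 and KRT80 were called higher and KRT23 lower in LIM1215, at 6.02 and 11.01 against 1.25 and 1.91 FPKM. Of 12 further carbonic anhydrases, 5 were tested and CA11 was called lower, at 22.8 and 21.5 against 9.98 and 9.29 FPKM. Of 15 genes of epithelial identity, ELF3 was counted above with the regulators, where it was called higher. Of the other 14, 13 had a mean of at least 1 FPKM in each line, of which 10 were higher and 1, ESRP1, lower in LIM1215. With the TMEM161A siRNA, GRHL2 was at least 2-fold lower in LIM1215, from 18.0 to 6.54 FPKM, and ESRP1 in the pair labelled HT29. Of all genes, 1.78% and 1.95% were that much lower in these pairs.

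Among the 111 genes of these and the marker lists that were tested, the siRNA term of limma called 2 higher and 1 lower, beside 0.858% and 1.09% of all genes. All 3 calls were lost without the trend, with the siRNA term alone, over all genes above 0, with a pseudocount of 0.1 and with either rescaling. EPS8L2, of the brush border list, was at 84.0 and 130.2 FPKM with control and TMEM161A siRNA in the pair labelled HT29 and at 102.4 and 185.7 FPKM in LIM1215 (0.74 on the log2 scale, adjusted p = 0.0316). KRT7 was at 20.3 and 32.7 FPKM and at 39.3 and 63.8 FPKM (0.67, adjusted p = 0.0492). ESRP1, an epithelial splicing factor, was lower, from 63.6 to 29.3 FPKM and from 21.2 to 11.2 FPKM (−0.98, adjusted p = 0.0281). The median ratios on the log2 scale were 0.20 and 0.10, in the pair labelled HT29 and in LIM1215, for the further brush border structure genes and 0.11 and 0.27 for the further regulators, with 0 of the 20 regulators tested called and 5 at an unadjusted p under 0.05, beside 19.5% of all genes.

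**Figure D4:**
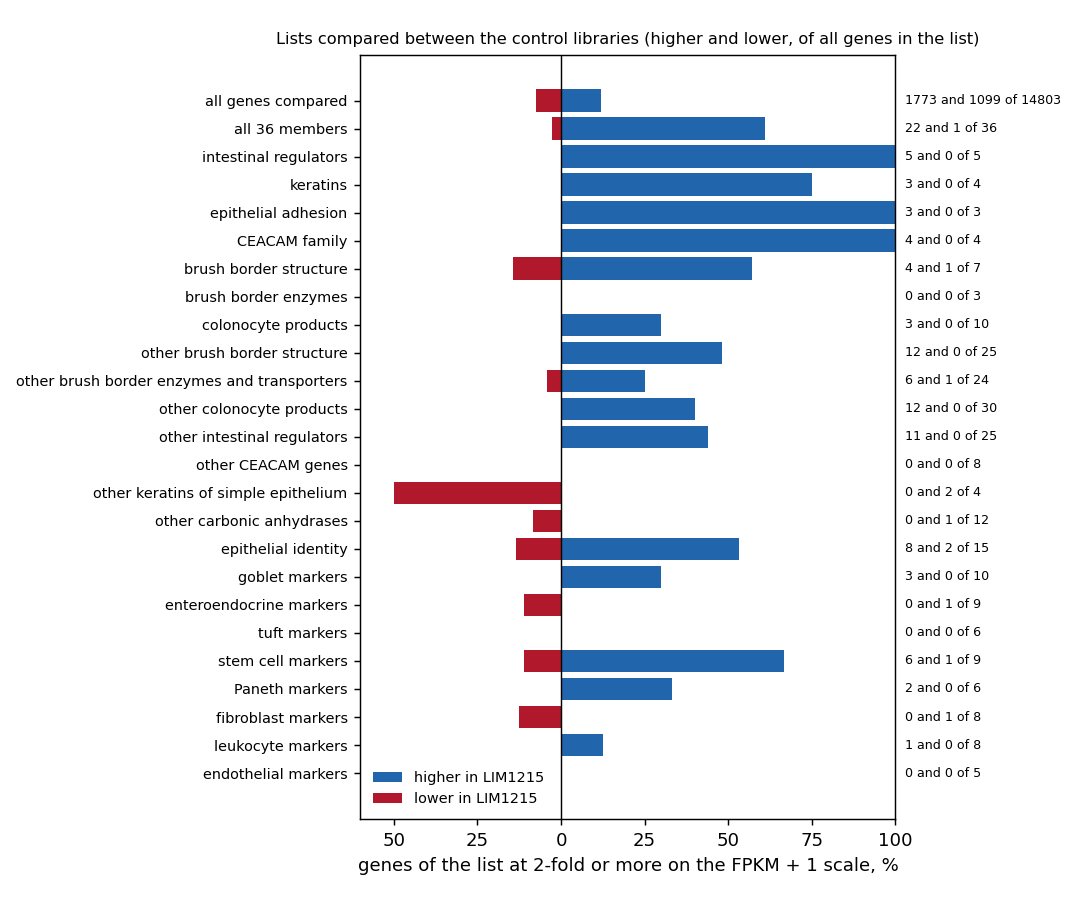
Share of the genes of each list that were at least 2-fold higher (right, blue) or lower (left, red) in the LIM1215 control than in the library labelled HT29 control, on the FPKM + 1 scale, with the counts at the right edge. Members stand at 22 higher and 1 lower of 36, beside 1773 and 1099 of the 14803 genes compared.

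Positions of members bear on some of these values. KRT8 and KRT18 overlap each other on chromosome 12 on opposite strands, and their 51 and 67 annotated pseudogenes together held at most 0.515% of the FPKM of KRT8 and 0.388% of that of KRT18. In all, 19 members overlap another annotated gene, and for 13 that gene reached 1 FPKM in at least 1 library. SLC26A2 and CDX1 lie 173 kb apart, with no other member between them, and genes outside the set were not examined there. SLC26A2 was at most 2.90 FPKM and was highest where CDX1 was listed at 0. GUCA2A and GUCA2B, 6.87 kb apart, were both listed at 0 in the libraries labelled HT29.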

How the data were processed

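RNA was measured in 4 libraries, 1 per cell line and siRNA, grouped by their titles. Per the labels' protocols, libraries came from column-purified total RNA with a stranded mRNA kit. The deposited values are FPKM per Ensembl gene identifier. The submitters' processing notes name HISAT2 2.1.0, SAMtools 1.20, Cufflinks 2.2.1, Cuffdiff and GRCh38. Whether strand was used, and how shared fragments were divided, is not given in the sources used here. A few abundant genes can therefore shift the FPKM of the rest.

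Symbols and positions came from GENCODE release 44 on GRCh38, for 56550 identifiers. Ratios are log2(FPKM + 1), which understates changes of low genes, with a 2-fold threshold and no test between single libraries. Genes with a mean FPKM of at least 1 were compared. The limma test (version 3.58.1, R 4.3.3, trend, 2-sided, Benjamini-Hochberg over 14803 genes) had cell line and siRNA as terms, with prior degrees of freedom of 6.06. It was tested on simulated data. Depth was estimated from the steps of low FPKM values: 76.1% to 78.3% of them lay within 0.03 of a whole number of fragments, through canonical transcript lengths. Other pseudocounts, scalings, filters, thresholds and models were tried.

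All 36 members are accounted for. Those past a threshold, and the highest of each role, are given by library, and up to 3 genes of each of the other lists that passed it; some list genes are not reported here. The members and lists were chosen with earlier results of these data known.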

Additional observations from a re-analysis of the deposited data

Results flagged for a closer look

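For 4 members at 1 FPKM or more in all 4 libraries, the TMEM161A siRNA libraries lay on opposite sides of their controls in the 2 lines. The difference of log2 ratios, LIM1215 minus the pair labelled HT29, was 0.666 for CDX2 (0.627 against −0.038), 0.557 for USH1C (0.473 against −0.084), 0.207 for EPCAM (0.086 against −0.122) and −0.282 for EZR (−0.011 against 0.271). With 1 library per group these differences were not tested. The counting intervals of CDX2 and USH1C in the pair labelled HT29, and of EZR in LIM1215, included 100% of control.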

How the results depend on the processing

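No result changed direction past a threshold. Among counts of members past 2-fold in the knockdown comparisons, a pseudocount of 0.1 gave 2 higher and 2 lower in the pair labelled HT29 and 2 higher and 3 lower in LIM1215. A 1.5-fold threshold gave 1 lower in the pair labelled HT29 and 2 higher and 4 lower in LIM1215. In LIM1215, rescaling to a common sum (TPM) gave 1 lower, CA1, and centring on the median gave 2, CA1 and FABP1. Between the lines, 2 members were lower with a pseudocount of 0.1 and 3 at 1.5-fold, in both pairs. The members' median between the control libraries was 3.08 and 1.45 with pseudocounts of 0.1 and 5, 1.45 with TPM, 1.45 with upper quartile scaling and 3.12 over members with a mean FPKM of at least 1. Between the knockdown libraries it was 2.57 with a pseudocount of 0.1, 1.53 with TPM and 3.46 over those members. TPM and upper quartile scaling put the median of all genes at −0.11 and −0.10 between the control libraries, and the limma line calls over all genes at 2646 higher and 3095 lower with TPM, against 3448 and 2431. The causes of these shifts were not tested. The siRNA term of limma called 1 member lower, CA2, at a mean FPKM of at least 5, and the line term called 1 member lower over all genes above 0 and with the tested term alone.

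The siRNA calls over all genes, 127 higher and 161 lower, were 0 and 0 without the trend, with the siRNA term alone and over all genes above 0 (2273, 370 and 2812 at an unadjusted p under 0.05), 14 and 36 with a pseudocount of 0.1, 10 and 39 with TPM, 9 and 30 with upper quartile scaling, and 400 and 402 at a mean FPKM of at least 5. No paired analysis beyond the line term was possible because each group has 1 library. Leaving out a library leaves the ratios given for each pair. Depth limits members under 1 FPKM, where single fragments move a ratio.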

Other observations

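Markers of other epithelial cells of the gut spanned a wide range of levels. AGR2, a folding factor of secretory cells, was listed at 0 in both libraries labelled HT29 and at 954 and 585 FPKM in the LIM1215 control and knockdown library. The goblet cell peptide TFF3 was listed at 0 in both and at 53.0 and 83.1 FPKM in LIM1215, while the mucin MUC2 stayed under 1 FPKM in all 4 libraries, at most 0.978. SPINK4 was at 0.235 FPKM and 0 against 24.0 and 9.63 FPKM. Of 10 goblet markers, 4 were tested. AGR2, TFF3 and SPINK4 passed the filter only through LIM1215, and FCGBP, at 1.597 and 3.48 against 0.939 and 1.197 FPKM, was not called for line by limma.

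Of 9 stem cell markers, 5 had a mean of at least 1 FPKM in each line, with 3 called higher and 1 lower in LIM1215 by limma, beside 20.9% and 16.3% of all genes with such means. LGR5, ASCL2 and SMOC2 passed the filter only through LIM1215. LGR5, a Wnt pathway receptor of crypt base cells, was at 0.0191 FPKM and 0 against 26.7 and 23.6 FPKM, ASCL2 was listed at 0 in both against 32.3 and 60.5 FPKM, and AXIN2 was at 5.82 and 4.55 against 59.5 and 62.9 FPKM. PROM1 was the one called lower, at 24.9 and 24.9 against 4.97 and 2.41 FPKM. Of 6 Paneth cell markers, 2 were tested, both with a mean under 1 FPKM in the libraries labelled HT29. PLA2G2A, a secreted phospholipase, was listed at 0 in both against 192.6 and 299.8 FPKM, and LYZ was at 0.201 and 0.775 against 1.04 and 2.13 FPKM and was not called. The other 4 did not pass 1.599 FPKM in any library. Of 9 enteroendocrine markers, 2 were tested and SCG2 was called lower, at 12.8 and 16.6 against 3.50 and 4.17 FPKM. The 1 of 6 tuft markers tested was not called.

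With the TMEM161A siRNA, 0 of the tested goblet, stem cell, Paneth, enteroendocrine and tuft markers were called by limma, beside 0.858% of genes higher and 1.09% lower. At an unadjusted limma p under 0.05 were 1 of 4 goblet and 1 of 8 stem cell markers tested, where 19.5% of all genes tested passed that limit. On the FPKM + 1 scale, SPINK4 in LIM1215 was at least 2-fold lower, and TRPM5 of the tuft list, at 0.782 and 2.87 FPKM, at least 2-fold higher. Of all genes compared, 1.78% were that much lower and 1.68% that much higher in LIM1215.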
